A study of Gallus gallus with 8 samples.

Results

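The 484 very wide domains described here were the open chromatin loci on chromosomes 1 to 28 whose width, the end minus the start of the deposited coordinates, was over 5000 bp. They were 484 of 83873 loci on these chromosomes and of 89824 loci in the whole table. The other 83389 loci on chromosomes 1 to 28 were 5000 bp or less and served as the narrower loci for comparison. A further 40 loci over 5000 bp lay on other chromosomes and were not included. Width was the only criterion, but the open regions had been called on these same libraries and joined across them, so width is not independent of signal, and levels are given against width as a description without a test.

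The assay was ATAC-seq, where Tn5 transposase tags accessible DNA for sequencing, and the tissue was the retinal pigment epithelium (RPE) of chicken embryos with no genetic change. The 4 groups were E5 6hPR+FGF2, E5 RPE, E4 6hPR+FGF2 and E4 RPE, with 2 libraries each. E4 and E5 are embryonic days 4 and 5, RPE is the developing tissue, and 6hPR+FGF2 is RPE taken 6 h after the neural retina was removed and beads carrying fibroblast growth factor 2 (FGF2) were placed in the eye cup. The labels name White Leghorn eggs, whereas the methods give SPAFAS pathogen-free eggs for the sequencing experiments. Each library was made from nuclei of the RPE of 2 embryos, and no library had retinectomy without FGF2, so that surgery and FGF2 cannot be told apart. The RPE identity of the cells was not checked against marker genes, because the open regions were used without gene names. Reads inside open regions numbered 25233633 and 33925829 in E5 6hPR+FGF2, against 72884966 and 60935269 in E5 RPE. At E4 they numbered 64716670 and 59446882 in 6hPR+FGF2, against 34595299 and 59076807 in RPE. Both E5 6hPR+FGF2 libraries were thus the shallowest, so that depth and treatment go together at E5. The part of depth in the results was not tested. In bulk tissue, fewer cells with an open locus and less accessibility per cell cannot be told apart.

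Most accessible sites in animal genomes are short stretches at promoters and enhancers, where bound proteins keep nucleosomes away. Wide accessible domains can form where many such elements lie side by side, as at clusters of enhancers or at genes that control cell identity, and their accessibility can shift as a block when a cell changes state. A wide interval can also be called over a long stretch of weak signal, over repeated sequence or over ribosomal DNA, so signal per kb is needed beside width.

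The wide loci ran from 5010 to 38440 bp, with a median of 6670 bp and quartiles of 5670 and 9452.5 bp. Of these, 375 were at most 10000 bp and 109 were wider. Together they covered 4.29 Mb, which was 6.16% of the open length on chromosomes 1 to 28 from 0.577% of the loci. The limit of 5000 bp cut through a continuous tail, with 16 loci within 100 bp above it and 36 within 100 bp below it. The narrowest wide loci, chr12:16382280-16387290 (5010 bp) and chr20:5152670-5157690 (5020 bp), held 776 and 491 normalized counts per kb. A pair of loci of exactly 5000 bp, chr12:11753870-11758870 and chr18:9611940-9616940, held 3371 and 461 per kb.

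Signal per kb, the mean normalized count over the 8 libraries divided by the width, separated the wide loci into a densely and a sparsely covered class. Over all wide loci the median was 657 normalized counts per kb, against 325 in narrower loci. The median count of a whole locus was 4347, against 167 in narrower loci. Yet 138 wide loci (28.5%) held under 100 counts per kb, against 1.65% of narrower loci, and 291 (60.1%) held at least 500, against 24.0%. Both tails were thus heavier among wide loci. Between 100 and 300 counts per kb, where 34807 of the narrower loci lay, there were 25 wide loci. A split at 200 counts per kb, chosen after these values were seen, gave 329 dense and 155 sparse wide loci.

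**Figure D1:**
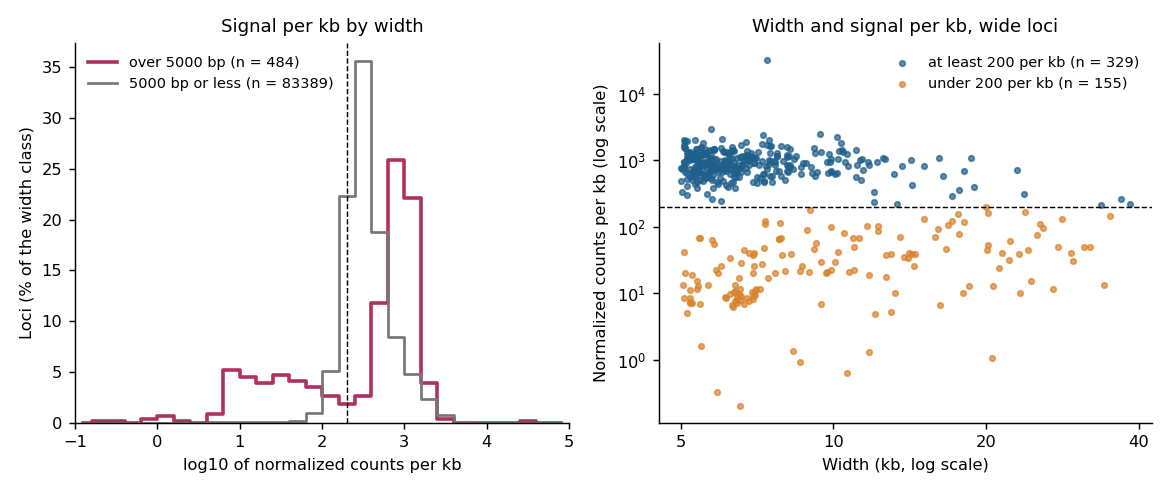
Left, percentage of loci in bins of log10 normalized counts per kb for loci over 5000 bp (n = 484) and of 5000 bp or less (n = 83389). Right, width against normalized counts per kb (both log scales) for each wide locus, with the 329 at or above and the 155 below 200 counts per kb in different colours. The dashed line marks 200 counts per kb, and the wide loci form a cloud on either side of it where the narrower loci have a single peak.

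The sparse loci had a median of 23.6 counts per kb and the dense loci one of 863. Sparse loci were the wider class, with a median width of 8680 bp against 6260 bp, and they took up 42.6% of the length of all wide loci while carrying 2.41% to 4.25% of their signal in the 8 libraries. The share of sparse loci was 23.7% among loci of 5000 to 10000 bp and 60.6% among those over 10000 bp. Signal per kb therefore did not climb without end as loci widened. Its median was 264 for loci of at most 500 bp, 344 up to 1000 bp, 574 up to 2000 bp, 794 up to 5000 bp, 748 up to 10000 bp and 103 beyond. Across the 484 wide loci, Spearman's rho between width and signal per kb was -0.27, which was -0.06 within the dense and 0.46 within the sparse class. These points share the 8 libraries, and width enters both measures. Depth was ample in dense loci and thin in some sparse ones: 20 wide loci averaged under 50 normalized counts and 9 had a count of 0 in some library, all of them sparse.

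The 5 widest loci lay on chromosomes 1, 14 and 27 and behaved differently from one another. The widest was chr1:260110-298550 (38440 bp), which held 222 counts per kb. The next were chr14:14608140-14645000 (36860 bp), chr1:170636250-170671430 (35180 bp), chr27:2544680-2578770 (34090 bp) and chr27:5459150-5492780 (33630 bp), with 259, 146, 13.3 and 215 counts per kb. All of these lay below the median of wide loci, and the fourth belonged clearly to the sparse class. Its normalized counts were 702 and 301 in E5 6hPR+FGF2, against 719 and 743 in E5 RPE, whereas E4 6hPR+FGF2 had 342 and 179, against 87.7 and 559 in E4 RPE. The E4 RPE replicates of this locus thus lay on either side of both E4 6hPR+FGF2 replicates. The fifth, in contrast, was steady, at 8085 and 7386 in E5 6hPR+FGF2, against 7443 and 7427 in E5 RPE, while E4 6hPR+FGF2 had 7434 and 6874, against 6804 and 6356 in E4 RPE.

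The locus of highest signal per kb was chr16:1836420-1843820, with 32522 counts per kb. Chicken chromosome 16 is a small chromosome that carries the major histocompatibility complex and the ribosomal DNA array. The locus held 272222 and 340699 counts in E5 6hPR+FGF2, against 265849 and 203753 in E5 RPE, while E4 6hPR+FGF2 had 190681 and 222497, against 244286 and 185324 in E4 RPE. It alone made up 7.11% to 13.0% of the signal of all wide loci in the 8 libraries, with the highest shares in both E5 6hPR+FGF2 libraries. Its treatment difference did not pass the limma test (log2 fold change 0.39, adjusted p = 0.115 at E5, and -0.05, adjusted p = 0.882 at E4). Reads with several alignments were reported by the aligner, and their part in this level was not tested. The next highest were chr28:2323610-2329350 with 2941 and chr3:95850360-95859790 with 2523 counts per kb.

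At the other end, chr27:504080-510630 held 0 to 4.95 normalized counts in the 8 libraries, so that its 6550 bp rest on a handful of reads. Close by, chr27:471420-477320 held 0 in all 4 6hPR+FGF2 libraries and 0.833 to 8.97 in the 4 RPE libraries. The third lowest, chr3:12319780-12330410, held 3.67 and 0 counts in E5 6hPR+FGF2, against 19.1 and 8.33 in E5 RPE, while E4 6hPR+FGF2 had 0 and 1.53, against 14.1 and 7.34 in E4 RPE. All 3 were under 1 count per kb, and none of their treatment differences passed the limma test.

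Wide loci were spread over all 28 chromosomes. Of all loci on these, 53.6% lay on chromosomes 1 to 5 and 28.7% on chromosomes 11 to 28, which took up 64.6% and 19.6% of the length. Chromosomes 1 to 5, the large chromosomes, held 198 wide loci or 0.440% of their loci, and 0.325 per Mb. Chromosomes 6 to 10 held 65 (0.439%, 0.438 per Mb), and the small chromosomes 11 to 28 held 221 (0.918%, 1.19 per Mb). Of the dense loci, 54.4% lay on chromosomes 11 to 28 and 29.5% on chromosomes 1 to 5. Of the sparse loci, 27.1% lay on chromosomes 11 to 28 and 65.2% on chromosomes 1 to 5. Dense loci thus lay on chromosomes 11 to 28 more often than loci at large, at 0.967 per Mb there and 0.159 per Mb on chromosomes 1 to 5. Sparse loci numbered 0.227 per Mb on chromosomes 11 to 28 and 0.166 per Mb on chromosomes 1 to 5, and their share on chromosomes 1 to 5 was close to the share of length. Chromosomes 10, 15, 17, 21 and 28 held no sparse locus. Chromosome 16 had the highest share, with 7 wide among 121 loci (5.79%), followed by chromosome 25 (10, 1.84%) and chromosome 23 (16, 1.58%). The lowest share was that of chromosome 7, with 10 wide loci (0.294%).

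**Figure D2:**
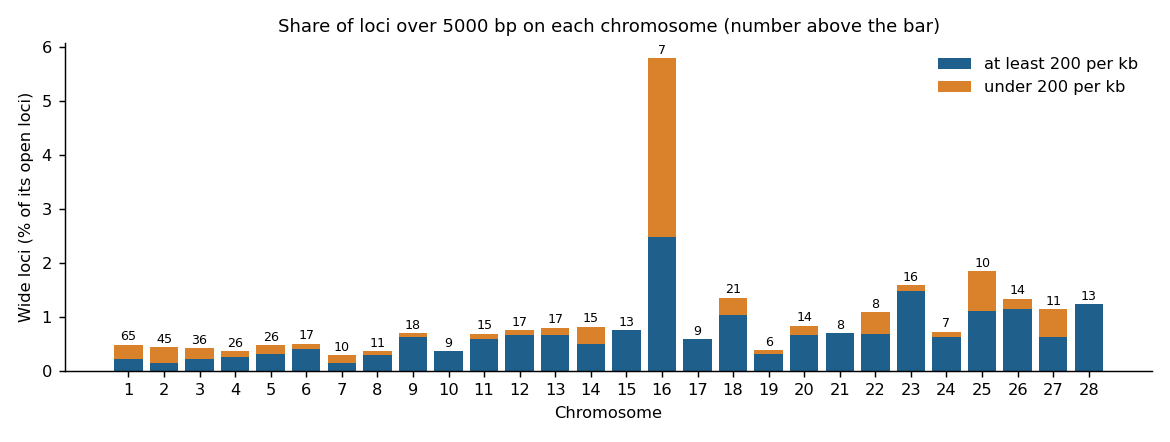
Wide loci as a percentage of the open loci on each of chromosomes 1 to 28, split into loci with at least 200 (lower part of the bar) and under 200 (upper part) normalized counts per kb, with the number of wide loci above the bar. Chromosome 16 stands out at 5.79% from 7 loci, and the sparse class makes up a larger part of the bars of chromosomes 1 to 3 than of most small chromosomes.

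Wide loci had close neighbours. The median gap to the nearest other open region was 780 bp, against 2340 bp for narrower loci, and 55.4% had a gap under 1000 bp, against 28.1%. This held for the dense class, with a median gap of 480 bp, and not for the sparse class, with one of 3480 bp. No narrower locus lay within 10000 bp of 27.7% of sparse loci, compared with 2.13% of dense loci. Within 50000 bp of the first or last locus of a chromosome there were 6 wide loci (1.24%), against 0.365% of narrower loci.

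Runs in which wide loci followed each other within 10000 bp numbered 39 and held 85 of the 484 loci. The longest by count was the run of 4 loci on chromosome 16 from 1803410 to 1843820, which ends in the locus of highest signal. Its first locus, chr16:1803410-1813310, held 99.3 counts per kb, and the following ones held 583, 1515 and 32522, with short gaps between them. A run of 3 sparse loci, chr18:1833480-1851490, chr18:1854110-1874790 and chr18:1884480-1911610, covered 65820 bp of a stretch of 78130 bp at 10.2, 12.7 and 11.4 counts per kb. The remaining runs of 3, on chromosomes 1, 9, 20 and 23, were made of dense loci. Within runs of 3 or more, density thus went from 10.2 to 32522 counts per kb, so a common width did not mean a common level.

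The share of the signal on chromosomes 1 to 28 that lay in wide loci was 5.47% and 5.37% in the E5 6hPR+FGF2 libraries, against 6.07% and 5.87% in E5 RPE. At E4 the shares were 5.25% and 5.35% in 6hPR+FGF2, against 5.55% and 5.73% in RPE. At both stages the 6hPR+FGF2 libraries lay below both RPE libraries. With 2 libraries against 2 the smallest two-sided p of an exact permutation test is 0.333, so these shares cannot pass a threshold of 0.05. The median of the dense loci was 807 and 889 counts per kb in E5 6hPR+FGF2, against 1032 and 993 in E5 RPE, and 770 and 812 in E4 6hPR+FGF2, against 858 and 917 in E4 RPE. The median of the sparse loci was 24.4 and 11.8 in E5 6hPR+FGF2, against 28.5 and 21.8 in E5 RPE, and 16.4 and 18.3 in E4 6hPR+FGF2, against 29.9 and 33.7 in E4 RPE. Only the sparse loci at E5 overlapped between the conditions. Narrower loci showed no such drop, with medians of 323 to 338 counts per kb in 6hPR+FGF2 and 309 to 321 in RPE libraries.

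**Figure D3:**
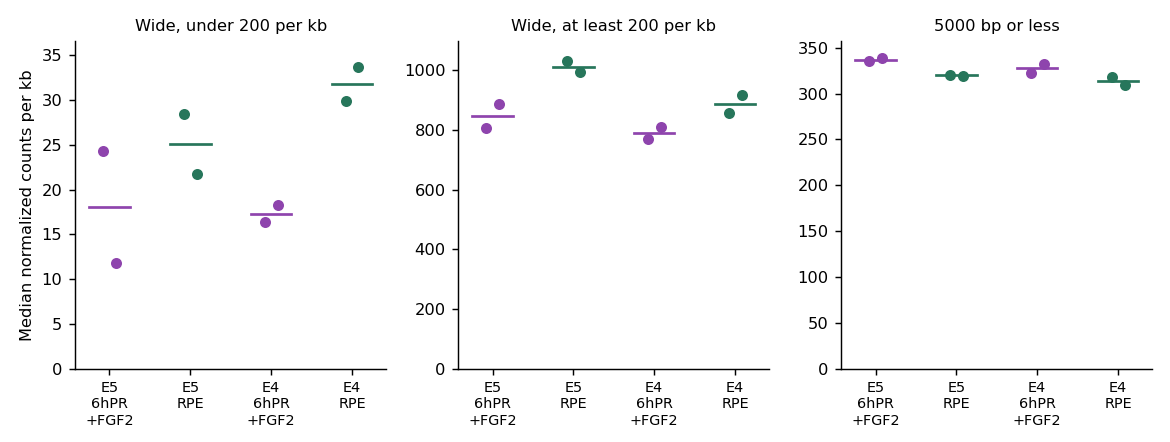
Median normalized counts per kb in each library (points) and group mean (line) for sparse wide, dense wide and narrower loci, with the groups in the order E5 6hPR+FGF2, E5 RPE, E4 6hPR+FGF2 and E4 RPE. Each vertical axis starts at 0. In both wide classes the group means of 6hPR+FGF2 lie below those of RPE at the same stage, and in sparse loci the E5 6hPR+FGF2 libraries, at 24.4 and 11.8, lie far apart.

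The E5 6hPR+FGF2 libraries disagreed over the sparse class. Replicate 2 was lower than replicate 1 at 135 of 155 sparse loci but at 73 of 329 dense loci. On the log2 scale the replicate SD of sparse loci had a median of 0.64 in E5 6hPR+FGF2, and of 0.22 to 0.25 in the other groups. In dense loci it was 0.06 to 0.12. The treatment result of the sparse class at E5 is therefore given with and without each of these libraries.

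In the deposited scaling, wide loci fell more often than they rose after retinectomy with FGF2 at both stages. At E5, 185 of 484 wide loci (38.2%) fell and 25 (5.17%) rose at a limma adjusted p of at most 0.05. Among all 89824 loci, 19.3% fell and 18.2% rose in this comparison. At E4, 117 wide loci (24.2%) fell and 19 (3.93%) rose, where 9.53% of all loci fell and 10.4% rose. The median log2 fold change of wide loci was -0.34 at E5 and -0.20 at E4, against -0.04 in narrower loci at either stage. Of all wide loci, 372 had a negative value at E5 and 338 at E4. Narrower loci with a mean at or above the lower quartile of the wide loci, 12216 in number, also fell more often than they rose, with 22.1% lower and 15.3% higher at E5 and 14.1% lower and 5.99% higher at E4. Their median log2 fold changes were -0.09 at E5 and -0.12 at E4. An excess of falls was thus not confined to wide loci. Signal was not matched: the median count of these narrower loci was 1788, against 4347 in wide loci, and their median per kb was 1038, against 657. The libraries are few, and p-values measure only the spread between libraries of 2 embryos each.

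With all 8 libraries the falls were deepest in the sparse class. At E5 this did not hold without replicate 2 of E5 6hPR+FGF2. Sparse loci had a median log2 fold change of -0.74 at E5 and -0.75 at E4, with 62 lower and 8 higher at E5 and 52 lower and 7 higher at E4. Dense loci had medians of -0.23 and -0.13, with 123 lower and 17 higher at E5 and 65 lower and 12 higher at E4. Narrower loci under 200 counts per kb also had negative medians, of -0.70 at E5 and -0.41 at E4. Of these, 30.5% fell by the test at E5, but 8.27% at E4, which was below the share of all loci. Narrower loci with at least 200 counts per kb had medians of 0.03 and 0.01. Of these, 17.7% fell at E5 and 9.88% at E4, against 37.4% and 19.8% of dense wide loci. Density was not matched, since these narrower loci had a median of 358 counts per kb against 863 in dense wide loci. Classes drawn from the RPE libraries alone, of 152 sparse and 332 dense loci, differed by few members.

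**Figure D4:**
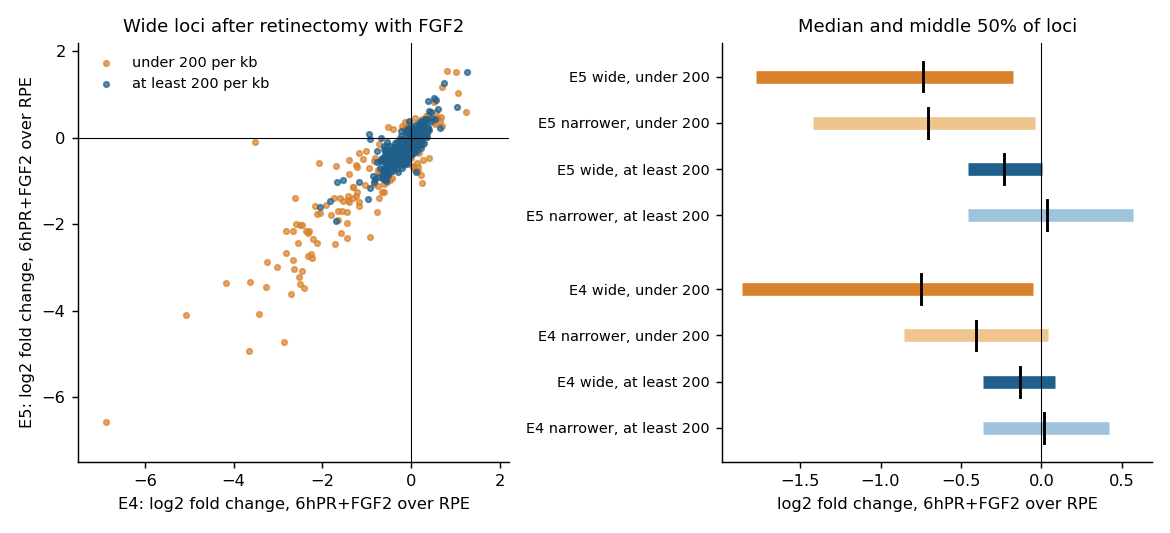
Left, log2 fold change of 6hPR+FGF2 over RPE at E4 (horizontal) and E5 (vertical) for each wide locus, coloured by signal per kb. Right, median (black line) and middle 50% of loci (bar) for wide and narrower loci under and at least 200 counts per kb, with E5 above E4. Wide loci string out toward the lower left, the sparse ones farthest. At both stages the medians of dense wide loci lie below 0. Those of narrower loci of at least 200 counts per kb lie close to it. These narrower loci had a lower median density, of 358 against 863 counts per kb. Loci of over 2000 to 5000 bp, not drawn apart, had medians of -0.16 at E5 and -0.13 at E4. The E4 median of dense wide loci turned to 0.09 under quantile normalization.

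How far dense loci fell depended on the scaling of the libraries. Scaling to equal totals moved the median log2 fold change of all loci by 0.07 at E5 and 0.11 at E4. The median of wide loci minus that of all loci was -0.30 at E5 and -0.17 at E4 under the deposited and the equal scaling alike. Equal totals multiply each library by a constant, which moves all loci nearly alike, so this distance could not test the falls. The split was then 181 lower and 42 higher at E5 (17.5% and 20.4% of all loci) and 112 lower and 48 higher at E4 (7.73% and 13.8% of all loci). Under quantile normalization it was 158 lower and 49 higher at E5 (17.6% and 18.6% of all loci) and 99 lower and 87 higher at E4 (10.1% and 12.1%). In the dense class at E4 the direction turned under this scaling, with 42 lower and 78 higher and a median of 0.09, and the median of all wide loci at E4 was then 0.01, level with that of all loci. The sparse class kept its direction under both scalings, with 56 lower at E5 and 46 to 57 lower at E4. With each of the 4 libraries compared left out in turn, the median of wide loci was -0.38 to -0.28 at E5 and -0.26 to -0.16 at E4. That of all loci was -0.05 to -0.02 at E5 and -0.05 to -0.003 at E4. Without either E5 RPE library at E5, or any 1 of the 4 at E4, fewer wide loci passed, and calls fell among all loci too. Each such fit holds 1 library in a group. In the sparse class at E5 the median was -1.35 without replicate 1 and -0.31 without replicate 2 of E5 6hPR+FGF2. The dense class had medians of -0.15 and -0.31 in these fits, so without replicate 2 the classes were level.

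The same loci tended to move at both stages, among wide and narrower loci alike. Of the 484, 102 fell at E5 and at E4, 15 rose at both, and none passed in opposite directions. A further 83 fell at E5 alone and 15 at E4 alone by the threshold, a contrast that is not a test of the difference between stages. At 255 loci neither comparison passed. The matching counts over all loci were not taken, so these counts do not set wide loci apart. The treatment contrasts at E5 and E4 share no library. Their log2 fold changes correlated over the 484 wide loci with r = 0.91, against 0.84 over narrower loci. Within the dense class r was 0.83, and within the sparse class 0.89. Loci are not independent replicates, and all share the sequencing of 8 libraries, so no p-value is given. At 153 wide loci (31.6%) every one of the 4 6hPR+FGF2 libraries was below every RPE library, compared with 15.9% of all and 16.1% of narrower loci. At 32 (6.61%) every one was above, compared with 18.4% and 18.7%.

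Large falls that passed the test were more common than large rises that did. Of the 484 loci, 67 (13.8%) at E5 and 56 (11.6%) at E4 were called lower by at least 1 log2 unit. By as much, 6 (1.24%) and 4 (0.826%) were called higher. Each call needed a limma adjusted p of at most 0.05, so large fitted falls that did not pass are left out. Among all loci, the same rule gave 12.9% lower and 11% higher at E5, and 5.85% lower and 6.56% higher at E4. At E5 the share of large falls was thus close to that of all loci. Falls were found on chromosomes of all sizes: among dense loci at E5 they numbered 43 of 97 on chromosomes 1 to 5, 20 of 53 on chromosomes 6 to 10 and 60 of 179 on chromosomes 11 to 28. Among sparse loci at E5 they numbered 47 of 101, 4 of 12 and 11 of 42. Of narrower loci, 23.4%, 19.6% and 12.4% fell at E5 on these chromosome groups. The median of sparse loci at E5 was -1.07 on chromosomes 1 to 5 and -0.32 on chromosomes 11 to 28. Without replicate 2 of E5 6hPR+FGF2 the median on chromosomes 11 to 28 turned to 0.31, against -0.51 on chromosomes 1 to 5, and without replicate 1 these were -0.94 and -1.52. This difference between chromosome groups was not tested.

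The clearest collapse was a pair of adjacent loci on chromosome 18, 220 bp apart and both sparse over the 8 libraries. In the classes drawn from the RPE libraries alone, chr18:11009300-11016640 was dense. The wider, chr18:11016860-11030910 (14050 bp), held 49.6 and 28.9 counts in E5 6hPR+FGF2, against 765 and 578 in E5 RPE, and 33.1 and 34.3 in E4 6hPR+FGF2, against 1297 and 1037 in E4 RPE. Its log2 fold change was -4.10 at E5 (SE 0.28, limma adjusted p = 4.06e-05) and -5.06 at E4 (adjusted p = 1.37e-05). Its neighbour, chr18:11009300-11016640 (7340 bp), held 99.2 and 100.3 in E5 6hPR+FGF2, against 1202 and 883 in E5 RPE, and 164 and 94.6 in E4 6hPR+FGF2, against 2430 and 2127 in E4 RPE. That is a log2 fold change of -3.36 at E5 (SE 0.26, limma adjusted p = 4.96e-05) and -4.18 at E4 (adjusted p = 2.17e-05). The 8 narrower loci within 10000 bp of it had mean log2 fold changes of -3.95 at E5 and -4.02 at E4. Signal was thus lower on average over the surrounding open regions too. In every library of 6hPR+FGF2 both loci were far below every RPE library, and the calls at E4, the stage at which the rule named them, held under all 17 alternatives tried.

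The largest fitted falls belonged to loci that almost lost their reads. At chr3:105163680-105168750 (5070 bp) there were 0 and 4.56 counts in E5 6hPR+FGF2, against 815 and 60.8 in E5 RPE, and 0 and 9.92 in E4 6hPR+FGF2, against 386 and 391 in E4 RPE. The fitted values of -6.57 at E5 (SE 1.31, limma adjusted p = 0.00364) and -6.88 at E4 (adjusted p = 0.00602) depend on the pseudocount. From the pooled reads, the E5 6hPR+FGF2 signal was 0.532% of that in E5 RPE (95% exact interval 0.110% to 1.56%, from 3 and 1226 reads) and at E4 it was 1.21% (0.642% to 2.08%). These intervals cover counting error only. The E5 RPE replicates differed far beyond it. Around this locus the 2 narrower loci within 10000 bp had mean log2 fold changes of 0.80 at E5 and -0.95 at E4. At E5 these neighbours were thus higher on average while the wide locus fell. At chr2:81687790-81694110 (6320 bp) there were 0 and 3.04 counts in E5 6hPR+FGF2, against 98.3 and 36.7 in E5 RPE, and 4.14 and 9.16 in E4 6hPR+FGF2, against 91.9 and 88.9 in E4 RPE. The E5 6hPR+FGF2 signal there was 2.38% of that in E5 RPE (0.286% to 8.71%). At chr1:163240850-163252960 (12110 bp), which had no narrower locus within 10000 bp, there were 12.9 and 0 counts in E5 6hPR+FGF2, against 147 and 64.2 in E5 RPE (adjusted p = 0.00424, limma), and 12.4 and 16.0 in E4 6hPR+FGF2, against 110 and 108 in E4 RPE (adjusted p = 0.0627). All 3 loci were sparse, with few reads behind them.

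The widest locus of all was among those that fell. At chr1:260110-298550 there were 3319 and 2717 counts in E5 6hPR+FGF2, against 11858 and 11116 in E5 RPE, and 5331 and 4036 in E4 6hPR+FGF2, against 16400 and 13519 in E4 RPE. The log2 fold change was -1.93 at E5 (SE 0.16, limma adjusted p = 7.26e-05) and -1.68 at E4 (adjusted p = 0.000254). The 2 narrower loci within 10000 bp had still lower means, of -3.63 at E5 and -2.70 at E4. On chromosome 16, the dense locus chr16:1813540-1829990 in the run described above held 4910 and 4947 counts in E5 6hPR+FGF2, against 20242 and 11227 in E5 RPE, and 3128 and 3730 in E4 6hPR+FGF2, against 16242 and 12324 in E4 RPE. It fell by 1.61 at E5 (limma adjusted p = 0.000766) and fell by 2.05 at E4 (adjusted p = 0.000594) on the log2 scale. It was chosen after its values were seen. The locus of highest signal, in the same run, did not pass the test.

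Rises were fewer and mostly smaller, and the one on chromosome 18 was largest at E4. At chr18:9847710-9853500 (5790 bp, dense) there were 5109 and 6783 counts in E5 6hPR+FGF2, against 2090 and 2031 in E5 RPE, and 3478 and 4778 in E4 6hPR+FGF2, against 1632 and 1754 in E4 RPE. The log2 fold change was 1.51 at E5 (SE 0.17, limma adjusted p = 0.000244) and 1.27 at E4 (adjusted p = 0.00134). Its 7 narrower neighbours had means of 1.19 and 0.77, so these were higher on average as well. The call of the wide locus held under all 17 alternatives at each stage. At chr14:16044210-16054730 (10520 bp, sparse) there were 1723 and 1412 counts in E5 6hPR+FGF2, against 558 and 513 in E5 RPE, and 927 and 762 in E4 6hPR+FGF2, against 583 and 396 in E4 RPE, a change of 1.54 at E5 (adjusted p = 0.000461) and 0.81 at E4 (adjusted p = 0.0209). At chr22:1635990-1641420 (5430 bp, sparse) there were 658 and 448 in E5 6hPR+FGF2, against 209 and 169 in E5 RPE, and 460 and 473 in E4 6hPR+FGF2, against 279 and 192 in E4 RPE, a change of 1.52 at E5 (adjusted p = 0.00123) and 1.01 at E4 (adjusted p = 0.0180). The groups did not overlap at any of these 3 loci, which at E5 was a condition for naming them.

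The remaining named rises were sparse as well. At chr19:2645710-2657980 (12270 bp) there were 1361 and 925 counts in E5 6hPR+FGF2, against 687 and 802 in E5 RPE, and 2188 and 2225 in E4 6hPR+FGF2, against 810 and 1088 in E4 RPE. It rose by 0.60 at E5 (limma adjusted p = 0.0419) and by 1.23 at E4 (adjusted p = 0.00315). Its 2 narrower neighbours within 10000 bp did not rise on average, with mean log2 fold changes of -0.42 at E5 and -0.01 at E4. At chr1:718080-732600 (14520 bp), with no narrower locus within 10000 bp, there were 959 and 662 in E5 6hPR+FGF2, against 390 and 387 in E5 RPE, and 592 and 802 in E4 6hPR+FGF2, against 296 and 365 in E4 RPE. It rose by 1.04 at E5 (adjusted p = 0.00518) and by 1.07 at E4 (adjusted p = 0.00904), but at E4 not without E4 6hPR+FGF2 replicate 2 or E4 RPE replicate 1. Rises in the sparse class show that low density did not go with falls alone. Among the 5 widest, chr1:170636250-170671430 rose too, with 6343 and 6177 counts in E5 6hPR+FGF2, against 4462 and 4322 in E5 RPE (log2 fold change 0.51, adjusted p = 0.00450), and 5338 and 5753 in E4 6hPR+FGF2, against 4426 and 4301 in E4 RPE (0.34, adjusted p = 0.0451).

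**Figure D5:**
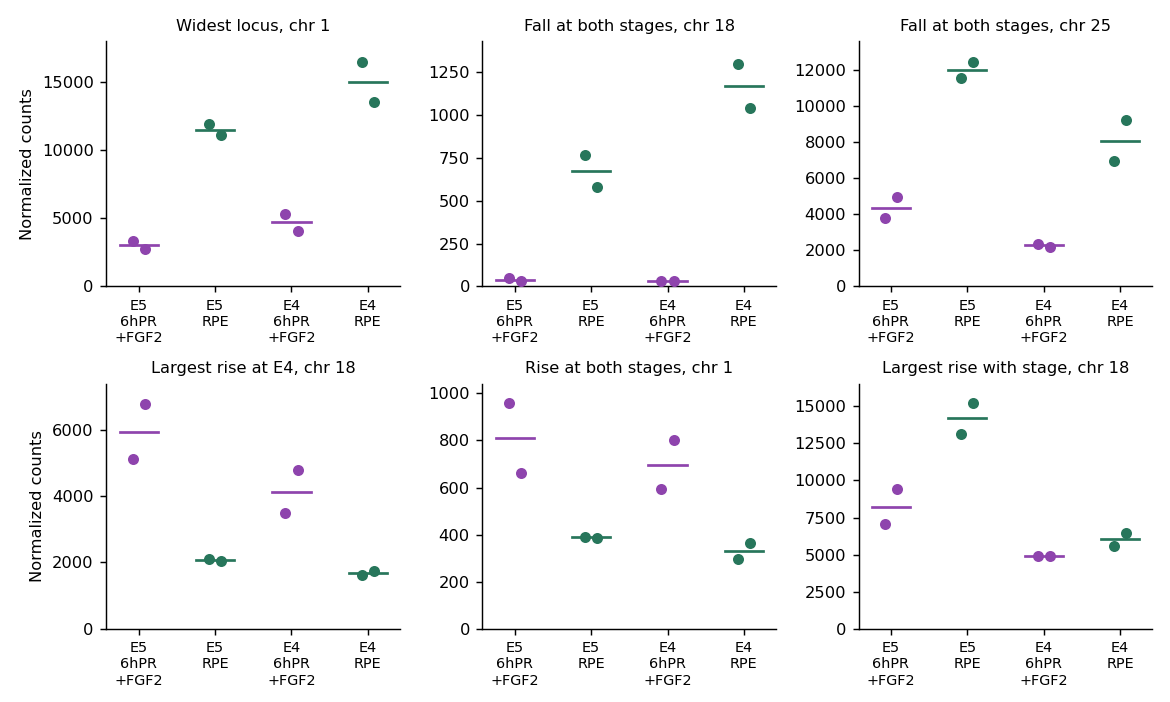
Normalized counts in each library (points) and group mean (line) at 6 wide loci, with the groups in the order E5 6hPR+FGF2, E5 RPE, E4 6hPR+FGF2 and E4 RPE. Each vertical axis starts at 0 and has its own scale. The first 3 panels show falls after retinectomy with FGF2 (to 3319 and 2717 in the widest locus at E5, against 11858 and 11116), the next 2 show rises, and the last shows a locus at its highest in E5 RPE, at 13144 and 15233.

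Between stages in developing RPE, far fewer wide loci changed. At E5, 20 wide loci (4.13%) were higher and 6 (1.24%) lower than at E4 by limma, beside 2.8% and 1.35% of all loci. All 20 rises were dense loci, and of the 6 falls 5 were dense. With classes drawn from the RPE libraries alone, all 20 rises and all 6 falls were dense. The dense class had a median log2 fold change of 0.16, with 248 of 329 values above 0, and the sparse class one of -0.09, with 61 of 155 above 0. The direction of the sparse class was not settled, since its median was 0.03 without E4 RPE replicate 2 and 0.12 with E5 RPE replicate 2 left out, and -0.24 and -0.30 when replicate 1 of E4 RPE or of E5 RPE was left out. Narrower loci of at least 200 counts per kb had a median of 0.04. These calls rested on each library, also on the 6hPR+FGF2 libraries, which are not compared here. More wide loci passed without either E5 6hPR+FGF2 library, and fewer without either E4 6hPR+FGF2 library. With any RPE library left out, few or no wide loci passed, and calls fell among all loci too. Each such fit holds 1 library in a group. The median of the dense class was then 0.11 to 0.21. At an unadjusted p under 0.05 limma gave 133 wide loci (27.5%), beside 21.3% of all loci. edgeR called 14 higher and 10 lower (2.73% and 1.84% of all loci), and DESeq2 46 and 16 (5.29% and 3.67%). Under quantile normalization limma called 28 higher and 20 lower (3.02% and 1.96%).

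The largest stage rise was at chr18:9891250-9904420 (13170 bp), 37750 bp beyond the locus on chromosome 18 that rose after treatment. It held 13144 and 15233 counts in E5 RPE, against 5571 and 6483 in E4 RPE (log2 fold change 1.24, SE 0.15, limma adjusted p = 0.00904). After treatment it held 7032 and 9428 at E5 and 4918 and 4919 at E4. It thus fell with treatment at E5 (-0.80, adjusted p = 0.00293), while the difference at E4 did not pass (-0.29, adjusted p = 0.208). The next rises were chr2:59728560-59734670, with 8413 and 7988 counts in E5 RPE, against 3840 and 4562 in E4 RPE (0.97, adjusted p = 0.0128), and chr23:4258080-4265890, with 8288 and 8597, against 4343 and 5583 (0.78, adjusted p = 0.0231). Both fell with treatment at E5 (-0.79, adjusted p = 0.00240, and -0.87, adjusted p = 0.00146). Of the 20 loci that rose with stage, 16 fell with treatment at E5 and 6 at E4. The stage contrast and the E5 treatment contrast share the E5 RPE libraries, so the overlap is no independent result. With the E4 treatment contrast the stage contrast shares the E4 RPE libraries. Low values there favour a rise with stage and work against a fall with treatment. The counts of 16 and 6 therefore cannot be set against each other, and the matching counts over all loci were not taken.

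The stage falls were led by chr18:11009300-11016640, one of the adjacent pair that collapsed after treatment, with 1202 and 883 counts in E5 RPE, against 2430 and 2127 in E4 RPE (log2 fold change -1.14, limma adjusted p = 0.0391). At chr6:23351360-23357150 there were 1631 and 1721 in E5 RPE, against 3268 and 2518 in E4 RPE (-0.78, adjusted p = 0.0349). At chr24:3881160-3887890 there were 2435 and 2720 in E5 RPE, against 4859 and 3858 in E4 RPE (-0.75, adjusted p = 0.0271). The locus on chromosome 24 also rose with treatment, by 1.26 at E5 (adjusted p = 0.000273) and by 0.74 at E4 (adjusted p = 0.00782). In none of these did the stage replicates overlap.

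Between stages after treatment, 6 wide loci (1.24%) were higher and 11 (2.27%) lower in E5 6hPR+FGF2 than in E4 6hPR+FGF2 by limma, beside 2.54% and 2.06% of all loci. The split depended on the setting. With equal totals it was 4 higher and 23 lower (1.78% and 2.81% of all loci), with quantile normalization 5 and 41 (2.08% and 1.98%), and with DESeq2 23 and 21 (5.05% and 4.11%). The median of the sparse class was -0.14, which was -0.67 without E5 6hPR+FGF2 replicate 1 and turned to 0.31 without its replicate 2. The largest rise was chr25:2706210-2714360 (8150 bp, dense), with 3815 and 4938 counts in E5 6hPR+FGF2, against 2379 and 2173 in E4 6hPR+FGF2 (log2 fold change 0.93, adjusted p = 0.0199). In RPE it held 11588 and 12442 at E5 and 6951 and 9240 at E4, so it also fell with treatment, in that it fell by 1.47 at E5 (adjusted p = 0.000205) and fell by 1.82 at E4 (adjusted p = 0.000176). Next were chr14:16044210-16054730 (0.89, adjusted p = 0.0398) and chr18:9891250-9904420 (0.73, adjusted p = 0.0309), whose counts are given above. The call on chromosome 14 was lost in 9 of 17 alternatives, among them equal totals and quantile normalization, which left the other 5 loci named here past the threshold. The largest falls were chr9:18970930-18977460, with 36.7 and 19.8 in E5 6hPR+FGF2, against 93.9 and 95.4 in E4 6hPR+FGF2 (-1.77, adjusted p = 0.0286), chr6:23351360-23357150, with 1574 and 1231, against 3136 and 2730 (-1.07, adjusted p = 0.0160), and chr19:2645710-2657980 (-0.97, adjusted p = 0.0309). The locus on chromosome 6 was thus lower at E5 in both conditions. Without E5 6hPR+FGF2 replicate 2, E4 6hPR+FGF2 replicate 1 or either E5 RPE library few or no wide loci passed, and calls fell among all loci too. Without E5 6hPR+FGF2 replicate 1 more loci passed, among wide loci and all loci. Each such fit holds 1 library in a group. In these fits the median of all wide loci was 0.003 to 0.06.

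No wide locus showed a treatment response that differed between stages by the interaction test in limma, where 0.00223% of all loci were higher and 0% lower. At an unadjusted p under 0.05 there were 32 wide loci (6.61%), beside 9.21% of all loci. edgeR called no wide locus and DESeq2 1, where DESeq2 called 0.342% of all loci. The smallest p-values were at chr1:48135490-48142270 (interaction 0.67, SE 0.15, adjusted p = 0.398) and at chr2:59728560-59734670 (-0.89, SE 0.21, adjusted p = 0.399), and the locus on chromosome 2 was the single DESeq2 call. The locus on chromosome 1 held 5908 and 6283 counts in E5 6hPR+FGF2, against 6159 and 6080 in E5 RPE, and 5770 and 5512 in E4 6hPR+FGF2, against 9469 and 8595 in E4 RPE. It lay beyond a run of 3 dense loci, chr1:48074300-48079780, chr1:48085490-48091300 and chr1:48099680-48104980, at more than the 10000 bp that defined a run. These 3 loci fell at E4 by 0.77, 0.48 and 0.54 (limma adjusted p = 0.00178, 0.0185 and 0.0109). At E5 the first of these fell by 0.56 (adjusted p = 0.00410), and the others had -0.20 and -0.26 (adjusted p = 0.211 and 0.113).

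The steadiest wide locus, chr23:5225410-5231550 (6140 bp, 1337 counts per kb), held 7629 and 8400 counts in E5 6hPR+FGF2, against 8383 and 8010 in E5 RPE, and 8361 and 8378 in E4 6hPR+FGF2, against 8086 and 8441 in E4 RPE. Its 4 narrower neighbours within 10000 bp nonetheless had mean treatment log2 fold changes of 0.90 at E5 and 0.49 at E4. In general the mean treatment changes of the narrower neighbours had a median of 0.04 at E5 and 0.12 at E4 around dense wide loci. The dense loci themselves had medians of -0.23 and -0.13. Around sparse loci the median of these neighbour means was -0.15 at both stages. Over the 434 wide loci with a neighbour, own and mean neighbouring log2 fold changes correlated with r = 0.35 at E5 and 0.48 at E4. These points share the same libraries.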

How the data were processed

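Per the study's methods and the labels, the authors trimmed reads with Trim Galore, aligned them to GRCg6a with Bowtie2 with several alignments reported per read, removed duplicates with Picard, called open regions per library with HMMRATAC and merged these over the libraries with BEDTools. The authors counted reads with featureCounts and normalized them with DESeq2. The deposited table holds a signal, the normalized number of reads in each open region. Every value was a whole multiple (tolerance 1e-06) of the value of 1 read in 100% of cases, so that reads could be recovered. Not given in the sources used here are tool versions, the handling of multiple alignments at counting and whether starts count from 0 or 1. No annotation or genome of this build was used, and planned marker checks were not run. One deposited locus had a width of 0 and no reads.

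Libraries were grouped by their labels. log2(normalized count + 1) of all 89824 loci was fitted with limma 3.58.1 in R 4.3.3 (group means of 8 libraries, moderation with a trend, two-sided, Benjamini-Hochberg adjustment over all loci, threshold 0.05). This scale understates the fold changes of low loci. The test was tried on simulated counts with 200 changed loci in 1 group. These are far fewer than the loci called for treatment here, so the trial does not cover those comparisons. Alternatives were equal totals, quantile normalization, pseudocounts of 0.5 and 10, a mean of at least 50, a block for the replicate number, fits of 4 libraries, each library left out, edgeR 4.0.16 and DESeq2 1.42.0 on the recovered reads, and width limits of 3000 and 10000 bp. Added after seeing the data were each density class alone and the shares without the locus of highest signal. Named loci were the 5 widest, the 3 highest and 3 lowest per kb, the 3 largest called rises and falls of each comparison without overlap of replicates, the interaction loci of smallest p, the 2 on either side of the limit and the least changed. Loci and rules were chosen with earlier results of these data known.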

Additional observations from a re-analysis of the deposited data

Results flagged for a closer look

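At chr1:48135490-48142270 the change with stage had opposite signs in the 2 conditions in every library. The log2 fold change of E5 over E4 was 0.11 in 6hPR+FGF2 RPE (limma adjusted p = 0.569) and -0.56 in developing RPE (adjusted p = 0.0251). The rise in 6hPR+FGF2 RPE thus did not pass. This locus was named for the smallest interaction p among wide loci, so a difference between conditions was part of its choice. The test of the difference itself, the interaction in limma, did not pass (adjusted p = 0.398).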

How the results depend on the processing

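The share of wide loci called for treatment was 43.4% at E5 (19.2% to 44.0% with 1 library left out, lowest without replicate 1 of E5 RPE, and 27.5% without its replicate 2, where 20.3% and 22.5% of all loci were called, beside 37.5% with every library) and 28.1% at E4 (8.88% to 38.8%, lowest without E4 RPE replicate 2, 12.0% and 13.6% without E4 6hPR+FGF2 replicates 2 and 1, where 9.73%, 7.61% and 12.8% of all loci were called, beside 19.96%). Without replicate 1 of E5 RPE or replicate 2 of E4 RPE, wide loci were thus called slightly less often than all loci. With the 4 libraries of the E5 comparison alone 28.9% of wide and 35.8% of all loci were called. For E5 against E4 the share in developing RPE was 5.37%, which became 9.50% with equal totals, 9.92% with quantile normalization, 12.2% with 4 libraries, 12.8% with DESeq2 and 0 to 13.6% with 1 library left out, and was 0.645% of the sparse class. After treatment it was 3.51%, which became 5.58%, 9.50%, 0 and 9.09% under the same 4 settings and 0 to 14.0% with 1 library left out. DESeq2 called 0.207% for the interaction, beside 0.342% of all loci. Replicate numbers are names only in the labels, and their deviations did not correlate in every comparison. With the number as a block the stage shares were 8.88% in developing RPE and 6.40% after treatment. Among all loci these were 8.14% and 9.01%. The block moved no other share of calls among wide loci by over 1.5 times.

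The share of signal in wide loci at limits of 3000 and 10000 bp was 15.7% and 1.10% in E5 6hPR+FGF2, against 17.0% and 1.29% in E5 RPE. At E4 it was 15.7% and 1.06% in 6hPR+FGF2, against 16.3% and 1.21% in RPE. Without the locus of highest signal it was 4.78%, 5.51%, 4.84% and 5.19% in these groups. The median log2 fold change of wide minus narrower loci was -0.30 for treatment at E5, and -0.16 at the limit of 3000 bp and -0.25 without E5 RPE replicate 1 (-0.32 to -0.25 with 1 library left out). For stage after treatment it was 0.01, and 0.091 at the limit of 10000 bp. Without E5 6hPR+FGF2 replicate 1 it turned to -0.0063 (range -0.0063 to 0.036), so its direction is not settled. The causes were not tested. Of the log2 fold changes of single named loci, 381 values kept their side of the threshold, 57 lost it and 1 gained it, and none reversed. Thin counts limit the sparse class.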
